A study of Homo sapiens with 45 samples.

Results

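The 43 genes described here encode proteins that a cell needs in G2 phase and mitosis: the CDK1 complex and its partners, activators of the anaphase-promoting complex (APC/C), Aurora kinases, kinetochore and spindle proteins, chromosome proteins and the cytokinesis machinery. They were taken as a list of names, which no threshold on their levels defined though earlier results of these data were known, and were found by symbol among the 58233 genes of the deposited human tables. All 43 were present and all 43 had enough counts to be tested. The cells were H9, an established line of human embryonic stem cells, on their way to spinal motor neurons. Clumps of cells were first grown in N2B27 medium with CHIR99021 (an activator of Wnt signalling), bFGF, SB431542 and DMH1 (inhibitors of TGF-beta and BMP receptors) and a ROCK inhibitor, which gives neuromesodermal progenitors, the tail bud cells that form spinal cord and paraxial mesoderm. On day 0 the cells were dissociated and replated in 100 nM retinoic acid (RA) and 500 nM SAG, an activator of Hedgehog signalling, with the ROCK inhibitor for the first days and a change of medium on alternate days. Messenger RNA was sequenced in 45 libraries, 3 on each of 15 days (day 0, day 1, day 2 and days 4 to 15; day 3 was not analysed here). Day 0 carries the label control and every later day had RA and SAG, so day 0 differs from the others in time, in treatment and in replating at once. All libraries come from this 1 line, and replicates are called bioreps with nothing more said, so p-values measure only the spread between these samples, which may be technical.

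Genes of mitosis are switched on late in each division cycle. As background, the MuvB core complex binds a short promoter element called the CHR (cell cycle genes homology region). With p130 or p107 and E2F4 it forms the repressive DREAM complex of resting cells, and with B-MYB and FOXM1 it activates the same promoters in G2, helped by NF-Y bound to CCAAT boxes. CDK1 with cyclin B then drives entry into mitosis, and the APC/C with CDC20 ends it by marking cyclin B and securin for destruction. In the embryonic spinal cord, progenitors divide while the neurons they produce leave the cycle for good.

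Levels are given as CPM, a library's counts scaled to a common total, after scaling each library with edgeR's TMM factor, changes as log2 fold changes ± SE from edgeR's quasi-likelihood test, and p-values as Benjamini-Hochberg adjusted over 19436 tested genes. The threshold for calling a change was an adjusted p of 0.05. Means are given ± SD with n = 3 libraries. Library totals ran from 22835854 to 39066286 counts and mitochondrial genes held 1.79% to 5.29% of them. The lowest count of a member in any library was 324, for CENPA. The labels call the cells of every day neural progenitor cells, differentiated from neuromesodermal progenitors, and known markers were checked. TBXT, CDX2 and NKX1-2, which mark neuromesodermal progenitors, averaged 23.7, 490.4 and 978 CPM on day 0 and 0.964, 23.7 and 25.8 CPM on day 1. SOX2, checked for the same cells, went the other way, with 271 CPM on day 0 and 458 CPM on day 1. The motor neuron progenitor gene OLIG2 averaged 3.54 CPM on day 1, 93.7 on day 8 and 24.9 on day 15. NKX6-1, checked for the same progenitors, averaged 11.7, 164 and 129 CPM on those days. Of the motor neuron genes, MNX1 averaged 0.470 CPM on day 1, 23.8 on day 8 and 6.95 on day 15, ISL1 0.0221, 12.6 and 5.49 CPM and CHAT 0.0332, 3.44 and 6.23 CPM on the same days. SLC18A3, like CHAT, was highest of these on day 15, at 0.474, 29.2 and 41.1 CPM. Single libraries stood apart on some late days: the third library was the highest for 36 of the 43 genes on day 10 and for 38 on day 15, and the second for 41 on day 13. On days 0, 1, 2 and 4 no library was the highest for more than 19 genes.

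The promoters of these genes hold the sequence elements named above more often than promoters at large. The RefSeq table (GRCh38.p14) gives a promoter for 36 of the 43 genes; AURKA, BIRC5, CDCA2, HMGB2, TPX2, TTK and UBE2C are not in it. In the 250 bases before the start site, TTTGAA or TTCGAA (the CHR letters, either strand) occurred in 21 of the 36 (58.3%), against 14.6% of 27305 promoters. At least 1 CCAAT (either strand) occurred in 27 (75%), against 33%, and 2 or more in 20 (55.6%), against 10%. A CHR together with 2 or more CCAAT occurred in 14 (38.9%), against 1.49%, while 7 of the 36 (19.4%) held neither, against 57.6% of all promoters. The 7 were CDC25C, CENPE, CKAP2, KIF2C, NDC80, NUF2 and TACC3. These are letter matches, overlapping matches were each counted, and a match is not a site shown to be bound. The share with CHR letters depended on the window, at 77.8% (against 16.6%) when the first 50 bases after the start were added, a window chosen after seeing the data.

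Of the 14 promoters with a CHR and 2 or more CCAAT, the 6 below belong to the genes with the largest fall between day 1 and day 15. These 6 show the arrangement in their own genes and need not stand for the rest. Each runs 5′ to 3′ on its gene's strand and ends 1 base before the RefSeq start; capitals mark CHR letters (TTTGAA, or TTCAAA on the other strand) and CCAAT letters (CCAAT, or ATTGG on the other strand). They lie at chr10:128126424-128126673 (minus strand), chr2:233854536-233854785 (minus), chr1:154974431-154974680 (plus), chr5:163460382-163460631 (plus), chr1:37692266-37692515 (plus) and chr9:89310945-89311194 (plus), in RefSeq's GRCh38.p14.
MKI67: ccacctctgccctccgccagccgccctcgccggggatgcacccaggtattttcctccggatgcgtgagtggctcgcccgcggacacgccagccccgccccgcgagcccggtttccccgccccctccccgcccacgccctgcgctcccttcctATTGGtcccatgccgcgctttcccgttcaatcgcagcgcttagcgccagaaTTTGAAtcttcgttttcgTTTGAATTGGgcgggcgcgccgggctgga
HJURP: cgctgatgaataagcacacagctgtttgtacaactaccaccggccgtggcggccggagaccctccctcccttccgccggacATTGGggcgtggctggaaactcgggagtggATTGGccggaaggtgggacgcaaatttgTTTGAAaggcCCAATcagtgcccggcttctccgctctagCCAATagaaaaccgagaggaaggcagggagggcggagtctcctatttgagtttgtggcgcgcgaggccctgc
CKS1B: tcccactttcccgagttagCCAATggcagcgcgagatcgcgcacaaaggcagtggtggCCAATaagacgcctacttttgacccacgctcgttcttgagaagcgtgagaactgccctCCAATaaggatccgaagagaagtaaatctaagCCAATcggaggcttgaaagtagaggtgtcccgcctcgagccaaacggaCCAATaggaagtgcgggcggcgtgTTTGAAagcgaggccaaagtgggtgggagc
HMMR: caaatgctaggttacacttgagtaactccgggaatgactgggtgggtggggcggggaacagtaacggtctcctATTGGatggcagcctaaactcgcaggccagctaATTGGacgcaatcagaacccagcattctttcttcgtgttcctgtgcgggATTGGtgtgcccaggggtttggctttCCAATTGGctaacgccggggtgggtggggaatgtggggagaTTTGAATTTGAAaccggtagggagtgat
CDCA8: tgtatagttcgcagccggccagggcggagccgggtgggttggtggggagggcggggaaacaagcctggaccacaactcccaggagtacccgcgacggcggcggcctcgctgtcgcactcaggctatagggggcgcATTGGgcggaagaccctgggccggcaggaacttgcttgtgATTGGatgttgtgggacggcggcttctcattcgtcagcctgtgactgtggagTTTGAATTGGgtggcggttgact
CKS2: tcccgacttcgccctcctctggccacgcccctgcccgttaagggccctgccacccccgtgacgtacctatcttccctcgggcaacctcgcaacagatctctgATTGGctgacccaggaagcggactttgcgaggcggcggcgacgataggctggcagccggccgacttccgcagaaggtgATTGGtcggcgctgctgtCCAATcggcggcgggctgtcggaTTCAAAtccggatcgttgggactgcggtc

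Counting back from the start site as -1, a CHR begins at -47 and -29 in MKI67, -30 in CKS1B, -28 and -22 in HMMR, -23 in CDCA8 and -29 in CKS2, each with at least 1 CCAAT further upstream. In HJURP the single CHR begins at -111, with CCAAT letters on both sides of it. Among the rest of the 14 promoters, a CHR begins at -29 in CCNB2 and -18 in CENPA. In CKAP2L it begins at -86 and -17, and in CDC20 at -178 and -65. It begins at -145 in NCAPD2, -138 and -109 in DLGAP5, -194 and -151 in TOP2A and -115 in ECT2. In MKI67 and CDCA8 a CHR and an inverted CCAAT share bases, and in HMMR 2 CHR copies stand end to end. PSRC1, the gene whose level departed most from the rest, held 1 CHR and 1 CCAAT, and NEK2, the next most different, held 2 CCAAT and no CHR.

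The 43 genes together rose within the first day, stayed high on day 2 and then fell to well under their starting level. Their summed level was 7480.2, 7446 and 7435 CPM in the day 0 libraries, 11122, 11093 and 10721 on day 1, 10892, 10952 and 10928 on day 2, 8490.2, 8641 and 8495 on day 4, 5719, 5936 and 5808 on day 8 and 4248, 4275 and 4739.9 on day 15. No library of day 4, day 8 or day 15 overlapped those of the earlier named days with RA and SAG, and day 15 stood at 40.3% of the day 1 mean. That percentage depends on the unit. In TPM, which is scaled for gene length, the sum fell relatively less, from 7237 ± 196 on day 1 to 3505 ± 211 on day 15. In bulk RNA, fewer dividing cells and less of these transcripts in each dividing cell cannot be told apart. Mean levels were highest on day 1 for 22 genes, on day 2 for 17, on day 0 for SMC4, TTK and KIF20B, and on day 15 for PSRC1. They were lowest on day 13 for 22, on day 15 for 19 and on day 9 for PSRC1 and CENPA. All 43 differed between some of the days, as did 91.5% of tested genes.

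**Figure D1:**
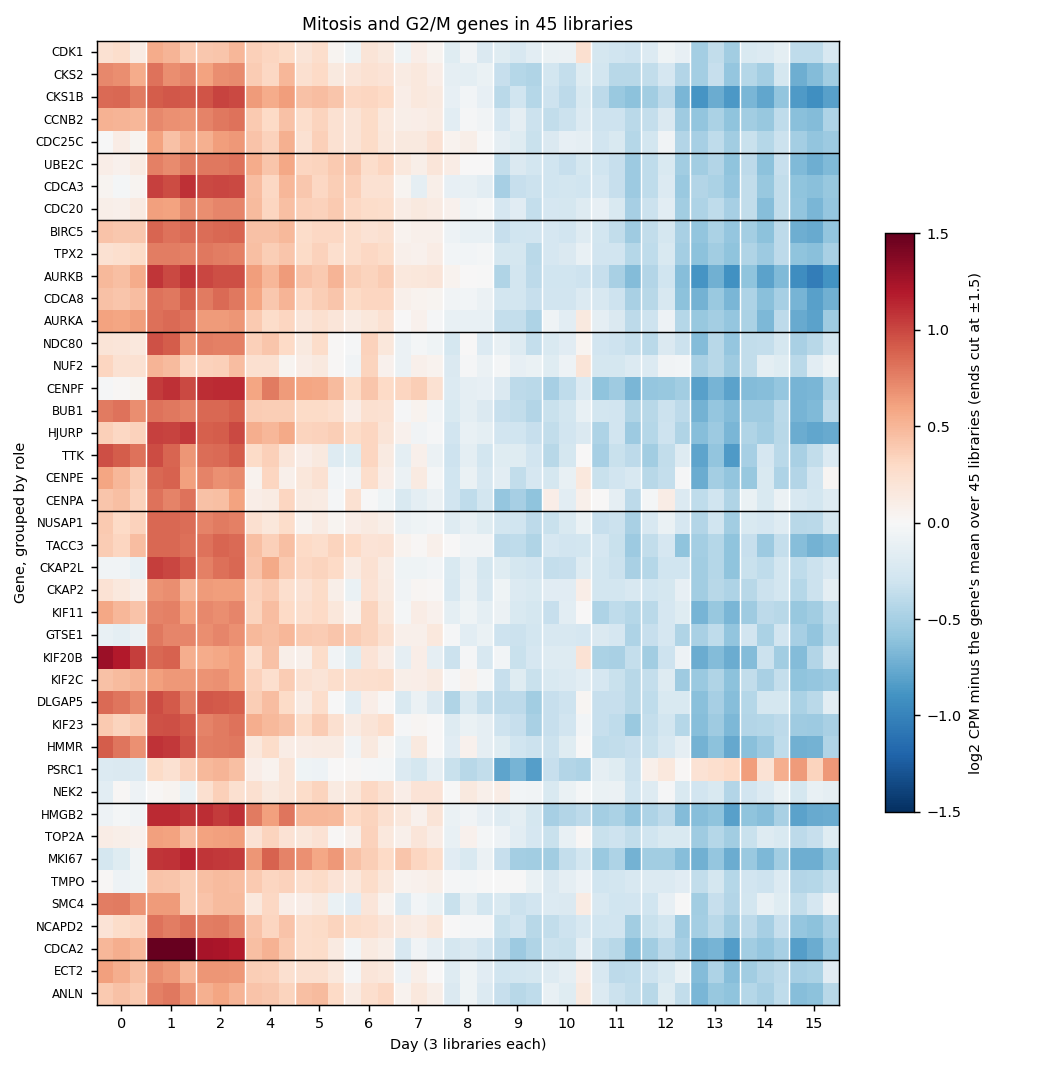
Level of each of the 43 genes (rows, grouped by role) in each of the 45 libraries (columns, 3 per day), as log2 CPM minus the gene's mean over all libraries, with colours capped at ±1.5. Nearly all rows are highest on days 1 and 2 and lowest from day 13 on. PSRC1 has its lowest day mean on day 9 and its highest on day 15, when its libraries overlap those of day 2.

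The first day under 50% of the day 1 mean differed between genes. CDCA2, which brings protein phosphatase 1 to chromosomes, was under it on day 4. CDCA3, CKAP2L, DLGAP5, HJURP and HMMR followed on day 7, another 11 genes on day 8 and 12 on day 9. CCNB2, KIF11 and KIF20B reached that point on day 11, 5 genes (CDC20, CKAP2, ECT2, KIF2C and TOP2A) on day 13 and CDC25C on day 15. CDK1, NEK2, NUF2, SMC4 and TMPO did not reach it on any day. Of the 38 genes that reached it, 12 were back above it on a later day, and CKAP2, ECT2, PSRC1 and TOP2A were above it on day 15. These days compare means of 3 libraries and carry no test.

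**Figure D2:**
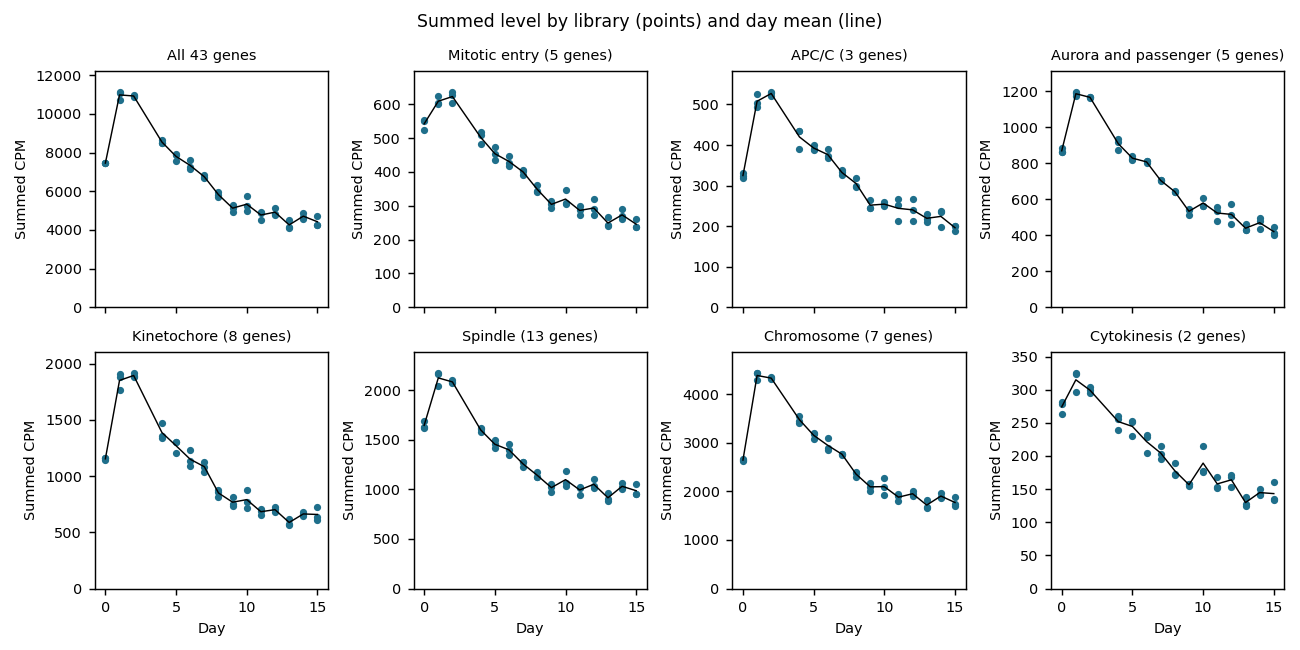
Summed CPM of all 43 genes and of each role group by day, with points for libraries and a line through the day means; every axis starts at 0. All groups peak on day 1 or day 2, and by day 15 each is between 35.4% (Aurora and passenger group) and 46.4% (spindle group) of its day 1 mean.

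Most mitotic genes were higher on day 1 than on day 0. Day 1 against day 0 asks what replating and the first day of RA and SAG did: 33 of the 43 genes were called higher and 1 lower, while 30.1% of all tested genes were called higher and 31.7% lower. The median change was 0.45, against 0.00 over all tested genes. The largest rises were in MKI67, which coats mitotic chromosomes, HMGB2, a DNA-bending chromatin protein, and CDCA2. MKI67 had 1212, 1223 and 1272 CPM on day 1, against 479, 506 and 557 CPM on day 0, a log2 change of 1.27 ± 0.07 (adjusted p = 4.0e-19). HMGB2 changed by 1.16 ± 0.05 (adjusted p = 5.2e-21) and CDCA2 by 1.07 ± 0.06 (adjusted p = 6.3e-18). In 35 genes all 3 day 1 libraries lay above all 3 day 0 libraries, which held for 33.1% of tested genes. The 9 genes not called were BUB1, CKS1B, CKS2, DLGAP5, ECT2, NEK2, NUF2, SMC4 and TTK, and the smallest changes were those of BUB1 (0.02 ± 0.06), TTK (-0.05 ± 0.11) and NEK2 (0.06 ± 0.07). The 1 gene called lower was KIF20B, a kinesin of cytokinesis, at 78.4, 79.2 and 62.7 CPM on day 1, against 104, 98.5 and 88.1 CPM on day 0. Its change was -0.40 ± 0.13 (adjusted p = 0.0062), and it missed the threshold with limma on log2(TPM + 1) (adjusted p = 0.055).

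On day 4 against day 1, 38 genes fell and 1 rose, with 22.8% of tested genes called lower and 24.4% higher. The median change was -0.36, and all day 4 libraries lay below all day 1 libraries in 40 genes (26.8% of tested genes). CDCA2 fell most, to 83.9, 88.7 and 80.7 CPM on day 4, against 182, 190.4 and 182 CPM on day 1, a change of -1.13 ± 0.06 (adjusted p = 3.4e-18). HMMR, a spindle assembly protein, changed by -0.85 ± 0.08 (adjusted p = 7.3e-12), and CENPE, the kinesin that carries chromosomes to the spindle equator, by -0.64 ± 0.12 (adjusted p = 2.0e-05). CDK1, CDC25C, PSRC1 and TMPO were not called, with changes between -0.17 and -0.05. NEK2, the kinase that separates centrosomes, was the gene called higher, by 0.21 ± 0.07 (adjusted p = 0.015). Its call was lost without replicate 1 of each day (adjusted p = 0.076) and without replicate 3 (adjusted p = 0.10).

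Between day 4 and day 8 the fall was general: 42 genes were lower on day 8 and none was higher, against 26% and 27.1% of tested genes. The median change was -0.49. MKI67 had 509, 492 and 542 CPM on day 8, against 907, 1060.0 and 966 CPM on day 4 (-0.93 ± 0.07, adjusted p = 1.0e-14), and its day 8 libraries overlapped those of day 0. CENPF, a kinetochore protein, changed by -0.83 ± 0.06 and HMGB2 by -0.83 ± 0.05. At the other end NEK2 was not called (-0.12 ± 0.07, adjusted p = 0.15), and the smallest called changes were those of HMMR (-0.26 ± 0.08) and NUF2 (-0.27 ± 0.09). In 42 genes the day 8 libraries all lay below the day 4 libraries, which held for 28.5% of tested genes.

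After day 8 most genes fell further. Day 15 against day 8 had 33 genes called lower and 1 higher, with 25.8% and 24.9% of tested genes called in those directions, and a median change of -0.41. In 32 genes all day 15 libraries lay below all day 8 libraries (29.1% of tested genes). The Aurora B kinase gene AURKB fell most, to 36.7, 34.0 and 37.6 CPM on day 15, against 72.4, 69.8 and 69.4 CPM on day 8 (-0.97 ± 0.07, adjusted p = 2.8e-15). CKS1B, a small CDK-binding protein, changed by -0.77 ± 0.06 (adjusted p = 1.6e-14). DLGAP5 (0.01 ± 0.08), CENPE (-0.01 ± 0.12) and SMC4 (0.04 ± 0.09) changed least, and CENPA, CKAP2, CKAP2L, KIF20B, NUF2 and TTK were also not called. For CDK1 the call is weak: its change was -0.18 ± 0.07 (adjusted p = 0.029), it was lost without replicate 1 (adjusted p = 0.12) or replicate 2 (adjusted p = 0.30) of each day, and with limma on log2(TPM + 1) it was 0.0033 (adjusted p = 0.99). PSRC1 was the gene that rose and is described with the spindle genes.

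Over the whole treated course, 41 genes were lower on day 15 than on day 1 and 1 was higher, against 35.1% and 39.4% of tested genes. The median change was -1.27, 34 genes fell by at least 2-fold, and all 3 day 15 libraries lay below all 3 day 1 libraries in 42 genes (36.1% of tested genes). This comparison shares its day 1 and day 15 libraries with others above, so it is not separate evidence. CDCA2 was lowest relative to day 1, at 34.7, 36.9 and 41.2 CPM on day 15, against 182, 190.4 and 182 CPM on day 1 (-2.30 ± 0.07, adjusted p = 2.8e-28), followed by AURKB and by HMGB2 (-1.87 ± 0.05). NUF2, a subunit of the NDC80 complex that grips spindle microtubules, fell least among the called genes (-0.64 ± 0.09). With TPM in place of CPM the median over members was -0.99, while the median over all genes tested was 0.23, against 0.05 with CPM.

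**Figure D3:**
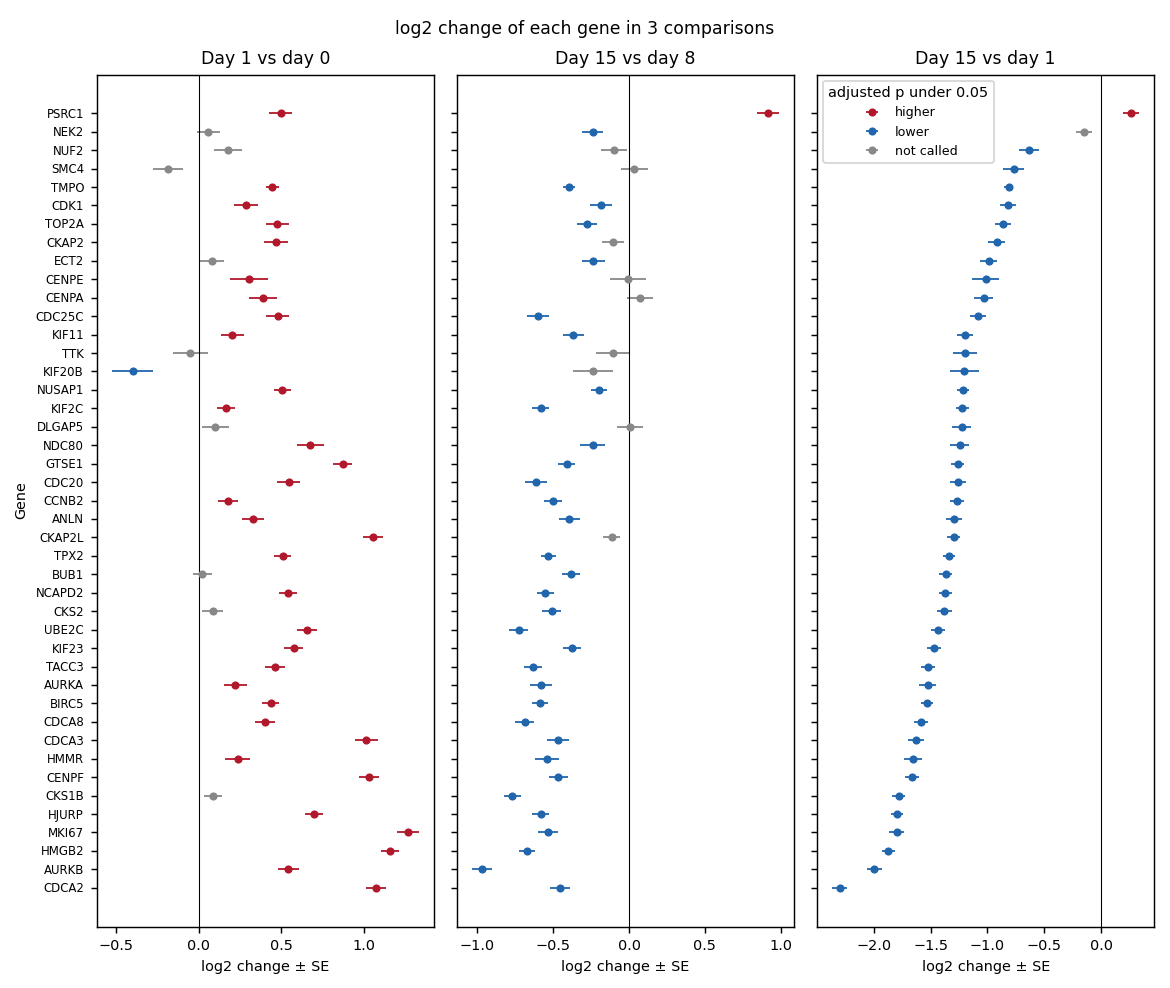
log2 change ± SE of each gene on day 1 against day 0, day 15 against day 8 and day 15 against day 1, ordered by the last; red and blue mark genes called higher and lower, grey those not called. Most genes are right of 0 in the first panel and left of 0 in the others; PSRC1 is on the right in all 3.

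The group of the mitotic entry kinase holds CDK1, its cyclin CCNB2, the small subunits CKS1B and CKS2 that help CDK1 bind its substrates, and CDC25C, the phosphatase that removes the inhibitory marks from CDK1. On day 1 against day 0, 3 of the 5 rose, and on day 15 against day 1 all 5 fell. Beside the counts of this and the following role groups, 30.1% of all tested genes were called higher on day 1 against day 0. The shares called lower were 22.8% on day 4 against day 1 and 26% on day 8 against day 4. They were 25.8% on day 15 against day 8 and 35.1% on day 15 against day 1. CKS1B had 164, 166 and 157 CPM on day 0, 171, 174 and 173 on day 1, 84.1, 88.9 and 83.9 on day 8 and 50.5, 48.3 and 52.0 on day 15. The day 15 libraries lay below those of the other 3 days named, and the change against day 1 was -1.78 ± 0.06 (adjusted p = 9.8e-27). CKS2 had 113, 112 and 101 CPM on day 0, 121, 111 and 114 on day 1, 62.8, 62.3 and 64.3 on day 8 and 41.5, 43.6 and 47.8 on day 15, so days 0 and 1 overlapped and the later days did not; its change was -1.38 ± 0.07 (adjusted p = 3.7e-21). CDK1 had 55.3, 55.5 and 61.2 CPM on day 15, against 106, 103 and 94.9 CPM on day 1 (-0.82 ± 0.07, adjusted p = 2.6e-13), so 56.6% of the day 1 level was left, while CKS1B kept 29.1%. Whether CDK1 and CKS1B differ in their fall was not tested. CKS1B (ENSG00000173207, chr1:154974653-154979249) has 6 named pseudogenes, which together reached 54.1 TPM (the authors' deposited unit, scaled for gene length), so its level may include shared reads.

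UBE2C, CDC20 and CDCA3 make up the APC/C group. UBE2C is the E2 enzyme that starts the ubiquitin chains, CDC20 the activator held in check by the spindle checkpoint, and CDCA3 a protein that the APC/C destroys. All 3 rose on day 1 and all 3 fell afterwards. UBE2C had 118, 115 and 120.4 CPM on day 0, 187, 180.0 and 190.0 on day 1, 119, 111 and 111 on day 8 and 69.8, 66.4 and 69.9 on day 15. The day 8 libraries overlapped those of day 0 and the day 15 libraries lay below both, with a change of -1.43 ± 0.06 against day 1 (adjusted p = 4.9e-22). CDC20 had 169, 168 and 175 CPM on day 0, 245, 243 and 260.3 on day 1, 166, 154 and 156 on day 8 and 106, 99.3 and 106 on day 15 (-1.26 ± 0.07 against day 1, adjusted p = 6.9e-19). Its pseudogene CDC20P1 reached 23.4 TPM, so some of its reads may also be shared.

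The Aurora group, with AURKA and its activator TPX2 at spindle poles and AURKB with BIRC5 (survivin) and CDCA8 (borealin) in the chromosomal passenger complex, was called in full in the early comparisons. All 5 genes rose on day 1 against day 0, and all 5 were lower on day 4 than on day 1, on day 8 than on day 4 and on day 15 than on day 8. TPX2 had 346, 352 and 362 CPM on day 0, 505, 505 and 498 on day 1, 289, 287 and 289 on day 8 and 194, 192 and 212 on day 15. BIRC5 had 189.7, 188 and 187 CPM on day 0, 259, 249 and 254 on day 1, 134, 131 and 131 on day 8 and 85.3, 84.1 and 94.2 on day 15. In both genes the libraries of these days did not overlap, and the changes on day 15 against day 1 were -1.33 ± 0.05 (adjusted p = 6.1e-24) and -1.53 ± 0.05 (adjusted p = 1.2e-25). AURKB kept 25.1% of its day 1 level on day 15 and AURKA 34.7%.

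The kinetochore, centromere and checkpoint group holds NDC80 and NUF2, CENPF, CENPE, CENPA (the centromeric histone H3), HJURP (its chaperone) and the checkpoint kinases BUB1 and TTK. Of the 8, 5 rose on day 1 against day 0 and BUB1, NUF2 and TTK were not called. CENPF had 547, 564 and 571 CPM on day 0, 1146, 1191 and 1103 on day 1, 483, 505 and 511 on day 8 and 342, 345 and 398 on day 15, a rise of 1.03 ± 0.06 on day 1 (adjusted p = 1.1e-17). BUB1 had 213, 219 and 202 CPM on day 0, 218, 215 and 209 on day 1, 106, 112 and 107 on day 8 and 76.2, 78.2 and 94.4 on day 15, with days 0 and 1 overlapping. All 8 fell from day 1 to day 4 and again from day 4 to day 8, but only 4 were called lower on day 15 than on day 8: BUB1, CENPF, HJURP and NDC80. NUF2 overlaps RGS5, HJURP overlaps MROH2A and CENPA overlaps SLC35F6, and reads of these neighbours may be included, since no source used here gives the strand setting of the counting.

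The 13 spindle genes cover motors (KIF11, which pushes the poles apart, KIF2C, which dismantles microtubule ends, KIF20B and KIF23), microtubule binders and stabilisers (NUSAP1, TACC3, CKAP2, CKAP2L, DLGAP5, GTSE1, HMMR and PSRC1) and NEK2. On day 15 against day 1, 11 fell and 1 rose. NUSAP1 had 197, 185 and 191 CPM on day 0, 272, 273 and 267 on day 1, 131, 138 and 132 on day 8 and 112, 113 and 125 on day 15 (-1.21 ± 0.05 against day 1, adjusted p = 2.4e-22). TACC3 had 224, 214 and 237 CPM on day 0, 313, 313 and 305 on day 1, 172, 165 and 165 on day 8 and 110.1, 105 and 109 on day 15 (-1.52 ± 0.06, adjusted p = 3.2e-23). On day 15 against day 8 NUSAP1 fell by less (-0.20 ± 0.05) than TACC3 (-0.63 ± 0.06), a difference that was not itself tested. NEK2 had the flattest course of all 43 genes: the ratio of its highest to its lowest day mean was the smallest of all, the median ratio being 2.64, and day 15 against day 1 missed the threshold (-0.15 ± 0.07, adjusted p = 0.052). On TPM that change had the opposite sign (0.095, adjusted p = 0.24).

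PSRC1 (ENSG00000134222, chr1:109279556-109283186), which binds microtubules of the spindle, parted from the others after day 9. It rose on day 1 against day 0 (0.50 ± 0.07), fell on day 8 against day 4 (-0.49 ± 0.07) and had 47.3, 50.5 and 46.3 CPM on day 9. It then had 64.5, 60.6 and 59.3 CPM on day 10, 74.6, 72.2 and 65.5 on day 11, 86.1, 91.5 and 83.1 on day 12, 95.1, 97.7 and 101 on day 13, 127, 95.0 and 119.7 on day 14 and 127, 104 and 128 on day 15. The day means increased at every step, and no library of days 12 to 15 fell within the range of days 8 to 11. The change on day 15 was 0.92 ± 0.07 against day 8 (adjusted p = 6.9e-14), when the median member changed by -0.41, and 0.26 ± 0.07 against day 1 (adjusted p = 9.9e-04). The rise over day 8 was called under each alternative run, while the smaller one over day 1 was lost without replicate 1 (0.22, adjusted p = 0.052). PSRC1 had 99.8, 96.0 and 104 CPM on day 1 and 115, 117 and 112 CPM on day 2, and its day 15 libraries overlapped both days. No other coding gene overlaps PSRC1 in the annotation used.

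The chromosome and nuclear envelope group holds the 3 most abundant of the 43 genes and 4 of lower level. It consists of TOP2A (topoisomerase II, which untangles sister DNA), MKI67, HMGB2, CDCA2, the condensin subunits SMC4 and NCAPD2, and TMPO, which anchors chromatin to the nuclear lamina. On the TPM scale, which allows levels to be compared between genes, mean levels over all libraries ran from 21.7 TPM for CENPE to 528 TPM for HMGB2, with TOP2A at 313 TPM and TMPO at 277 TPM. HMGB2 had 282, 290.5 and 286 CPM on day 0, 646, 647 and 623 on day 1, 278, 286 and 272 on day 8 and 171, 176 and 177 on day 15. Its day 8 libraries overlapped those of day 0, and day 15 stood -1.87 ± 0.05 from day 1 (adjusted p = 6.6e-28). TOP2A had 777, 767 and 752 CPM on day 0, 1102, 1099.8 and 992 on day 1, 669, 756 and 706 on day 8 and 549, 569 and 638 on day 15, a smaller change against day 1 (-0.86 ± 0.07, adjusted p = 2.6e-14). TMPO, whose lamina function is not limited to mitosis, kept 57.0% of its day 1 level. SMC4 kept 58.6%, and it overlaps IFT80 and TRIM59 on the other strand.

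The cytokinesis pair is ECT2, which activates RhoA at the division plane, and ANLN (anillin), a scaffold of the contractile ring. ECT2 had 155, 147 and 137 CPM on day 0, 163, 158 and 143 on day 1, 88.4, 96.7 and 89.7 on day 8 and 71.4, 72.5 and 89.4 on day 15. ANLN had 126, 130.3 and 127 CPM on day 0, 162, 166 and 154 on day 1, 82.6, 92.0 and 83.6 on day 8 and 61.4, 62.9 and 71.9 on day 15. Days 0 and 1 overlapped in ECT2 and not in ANLN, and both genes were lower on day 15 than on day 1, with log2 changes of -0.99 ± 0.08 (adjusted p = 7.7e-15) and -1.29 ± 0.07 (adjusted p = 1.6e-19).

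The late decline was not smooth. Between days 9 and 10, 9 genes rose and 1 fell, while 15.9% of tested genes were called higher and 13.7% lower, so the count of rising members is near the background. All 3 day 10 libraries lay above all 3 day 9 libraries in 15 genes, against 20.3% of tested genes. CENPA had 16.2, 13.6 and 16.0 CPM on day 10, against 10.1, 10.7 and 9.94 CPM on day 9 (0.58 ± 0.09, adjusted p = 4.4e-06). AURKA changed by 0.37 ± 0.07 and PSRC1 by 0.36 ± 0.07, followed by ANLN, DLGAP5, CDK1, ECT2, CDCA2 and KIF23. HMGB2 was the gene that fell (-0.24 ± 0.05, adjusted p = 5.8e-04), and CDC20 (0.02 ± 0.07), UBE2C (-0.01 ± 0.06) and TTK (0.01 ± 0.11) changed least. Much of this rests on 1 library. Summed levels were 4986, 5236 and 5764 CPM on day 10, against 5299, 5151 and 4924 CPM on day 9, and without the third library of day 10 only AURKA, ANLN, CENPA and PSRC1 were called higher, with HMGB2 and TMPO lower. Without replicate 3 of every day the median change was -0.0029, against 0.09 with it.

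Some of the genes were lower on days 11 and 13 than on the days around them. Days 11 and 13 were compared with days 10, 12 and 14 in a contrast in which a straight trend cancels. The grouping was chosen because late days alternated in earlier results of these data, so it is not independent evidence of a dip. In this contrast 21 genes were lower and none was higher, against 3.65% and 2.33% of tested genes. All 43 estimates were below 0, with a median of -0.14, or a fold of 0.908, so the dip is small. CDK1 had 67.5, 68.1 and 85.4 CPM on day 10, 59.9, 58.7 and 58.0 on day 11, 62.4, 69.3 and 66.3 on day 12, 50.5, 55.8 and 50.3 on day 13 and 61.3, 62.5 and 65.2 on day 14. All libraries of days 11 and 13 lay below all of days 10, 12 and 14, which among the 43 was so for CDK1 alone and held for 0.139% of tested genes, and the contrast was -0.27 ± 0.05 (adjusted p = 3.8e-04). KIF20B (-0.30 ± 0.09, adjusted p = 0.037) and NUF2 (-0.25 ± 0.06, adjusted p = 0.0074) had dips of similar size, while CDC20 (-0.02 ± 0.05), PSRC1 (-0.03 ± 0.05) and NCAPD2 (-0.06 ± 0.04) changed least. Day 13 carried more of it than day 11: the day 13 mean was below both neighbours in 41 genes (32.2% of tested genes), the day 11 mean in 28 (31.9%). All 3 day 13 libraries were below all libraries of days 12 and 14 in 17 genes, which held for 1.91% of tested genes. All 3 day 11 libraries were below all libraries of days 10 and 12 in 4 genes, which held for 2.38% of tested genes.

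**Figure D4:**
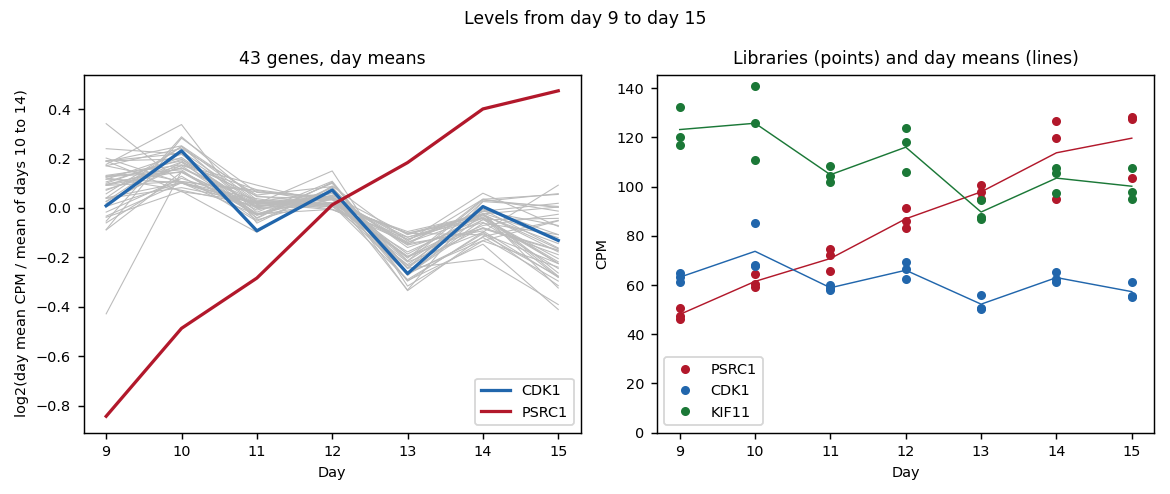
Left, the day mean of each of the 43 genes from day 9 to day 15 as log2 of its ratio to the gene's mean over days 10 to 14, with CDK1 and PSRC1 in colour. Right, CPM of PSRC1, CDK1 and KIF11 in each library with lines through the day means: CDK1 and KIF11 dip on days 11 and 13, and PSRC1 climbs.

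The size of this call set is uncertain. Leaving out replicate 1, 2 or 3 of every day left 8, 10 and 1 genes called lower. A fit with only days 10 to 14 left 2, CDK1 and KIF11. For scale, the main fit called 21 of the 43 genes and 3.65% of all tested genes lower. The shares of all tested genes called in the reduced fits are not given here. Without those shares, how counts of 1 or 2 of the 43 stand against background is not known. Leaving out the third library of day 11 alone gave 13, and the second library of day 12 alone gave 12. With day 15 counted among the odd days, 38 genes were called lower and PSRC1 higher, against 9.77% and 5.69% of tested genes, but that version does not cancel the late trend.

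Neuronal genes, which are expressed by cells that no longer divide, were higher late in the course than on day 1. The summed level of 18 pan-neuronal markers, such as STMN2, TUBB3 and DCX, was 804 ± 0.756 CPM on day 1, 2180.3 ± 53.1 on day 4, 7839.8 ± 367 on day 8, 9971 ± 445 on day 9, 7476 ± 1214 on day 10 and 6713 ± 620.1 on day 15. All 18 were higher on day 15 than on day 1. On day 10 against day 9, 12 of the 18 fell and none rose, beside the 9 mitotic genes called higher and the 33 not called. On 10 of the 12 days from day 4 to day 15, and on all 6 from day 10, the library with the highest summed level of mitotic genes was the one with the lowest summed level of neuronal genes. The reverse match, of the lowest mitotic with the highest neuronal sum, held on 7 of the 12 days and on 3 of the 6. Before day 4, both matches held on day 1 and neither on days 0 and 2. With 3 libraries on a day, some matches arise without any link between the 2 sums, and their number was not tested. On day 11 the libraries had 4902, 4894 and 4514 CPM of mitotic genes and 6779.9, 7650.1 and 10512 CPM of neuronal genes. On day 12 they had 4823, 5143 and 4788 CPM and 8175, 6129 and 8425 CPM, and on day 13 4167, 4494 and 4112 CPM and 8783, 6599.6 and 8509 CPM. In the contrast of odd and even days none of the 18 neuronal markers was called in either direction. Their median change was 0.15, against -0.14 for the mitotic genes. The part of neuronal content in the mitotic results was not tested.

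Markers of progenitors followed another course than the neuronal genes, with falls as well as rises. Of 12 neural progenitor genes 11 rose on day 1 against day 0 (PAX6 had 402 ± 5.54 CPM on day 1, against 0.215 ± 0.0937 CPM on day 0) and none fell. On day 15 against day 1, 5 rose and 6 fell: the transcription factor genes PAX6 (-2.60 ± 0.06) and SOX1 (-2.62 ± 0.08) and the Notch target HES5 (-4.66 ± 0.16) were the largest changes, all falls. Their sum was 2116 ± 136 CPM on day 0, 5688 ± 162 on day 1, 6601 ± 43.7 on day 8 and 4991 ± 90.6 on day 15. It was higher on day 4 than on days 1 and 8, at 7625, 6944 and 7080 CPM. On day 8 against day 4, 7 of the 12 genes were lower and 4 higher, with a median change of -0.30. Of all tested genes 26% were lower and 27.1% higher. On day 15 against day 8, 7 of the 12 were lower and 2 higher, with a median of -0.35. In that comparison 25.8% of tested genes were lower and 24.9% higher. On day 15 against day 1 the median of the 12 was -0.51. Of 10 radial glia and astrocyte markers, 8 rose and 1 fell on day 15 against day 1; NFIA, which promotes gliogenesis, had 57.4 ± 1.37 CPM on day 15, against 1.05 ± 0.136 CPM on day 1. Summed mesoderm markers stayed between 1.76 and 4.01 CPM, endoderm and endothelium markers between 3.09 and 17.6 CPM and neural crest markers between 14.1 and 76.8 CPM in day means. Their part in the mitotic results was not tested.

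Other genes of the division cycle showed how far the pattern reaches. Among 42 S phase genes, which copy DNA and supply its building blocks, 41 were lower on day 15 than on day 1 and none was higher, with a median change of -1.68 against -1.27 for the 43 mitotic genes. The largest falls were in E2F8 (-2.56 ± 0.10), the helicase subunit MCM5 (-2.23 ± 0.08) and CLSPN (-2.21 ± 0.06). Their first day differed, with 25 higher and 7 lower on day 1 against day 0 and a median of 0.19, against 0.45 for the mitotic genes. In the odd and even day contrast 23 of the 42 were lower and none was higher. These differences between lists were not tested.

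Most mitotic genes outside the 43 also fell. All 12 other mitotic kinases, cyclins and phosphatases fell on day 15 against day 1, with CIT, a kinase of cytokinesis, at 64.5 ± 2.60 CPM on day 15, against 274 ± 3.97 CPM on day 1 (-2.09 ± 0.06). Of 21 other kinetochore and checkpoint genes 20 fell and none rose, with SKA1, which tracks microtubule ends, at -2.39 ± 0.07 and INCENP, the scaffold of the passenger complex, at -1.77 ± 0.06. All 12 other condensin and cohesin genes fell, with CDCA5 at -1.89 ± 0.07 and NCAPH at -1.88 ± 0.05. Of 11 further genes in the published G2/M list 9 fell and 1 rose, led by PIMREG (-2.03 ± 0.08).

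The known regulators of such promoters had a smaller median change. Of 13 DREAM, MuvB, B-MYB and FOXM1 genes, 10 were lower on day 15 than on day 1 and 2 were higher, with a median of -0.63. FOXM1, the activator of G2 genes, had 99.6 ± 3.53 CPM on day 15, against 307 ± 10.0 CPM on day 1 (-1.62 ± 0.07, adjusted p = 6.3e-23). MYBL2, which encodes B-MYB, had 90.3 ± 2.46 CPM, against 274 ± 8.41 CPM (-1.60 ± 0.08, adjusted p = 4.5e-21). The 2 higher genes, named after their values were seen, were RBL2, which encodes p130 of the DREAM complex, with 64.9 ± 3.07 CPM on day 15, against 38.8 ± 0.663 CPM on day 1, and the MuvB subunit LIN37, with 5.31 ± 0.818 CPM, against 3.91 ± 1.26 CPM. The level of LIN37 was low and its ranges of mean ± SD overlapped, so its rise is less sure than that of RBL2. Of 17 subunits and inhibitors of the APC/C, which also works outside mitosis, 12 fell and 1 rose with a median of -0.46; ANAPC1 (-1.45 ± 0.04) and the inhibitor FBXO5 (-1.34 ± 0.08) fell most.

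**Figure D5:**
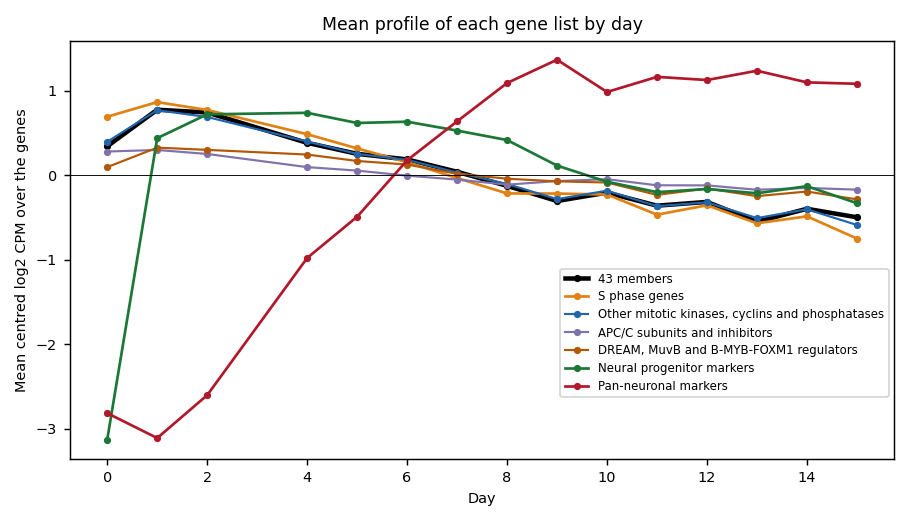
Mean over the genes of each list of their log2 CPM, each gene centred on its own mean over the 15 days, plotted by day. The 43 mitotic genes and the other mitotic kinases run together, S phase genes fall further by day 15, APC/C subunits and DREAM, MuvB and B-MYB-FOXM1 genes change less, and neuronal and progenitor markers take other courses.

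Among 15228 protein-coding genes outside the list, those whose 15 day means followed the average course of the 43 most closely were EFL1, CEP78, BUB1B, NUP98, TUBA1B, C1orf112, KIF15, CCNA2, RBL1 and SMC1A. The measure was the root mean square difference between centred log2 day means, at 0.0593 for EFL1 and 0.0722 for SMC1A, against a median of 0.534 over all of them. BUB1B and CCNA2 are on the list of mitotic kinases and cyclins, RBL1 on that of DREAM genes and SMC1A on that of cohesin genes. TUBA1B, an alpha tubulin, had 1538 ± 11.9 CPM on day 15, against 3719 ± 61.2 CPM on day 1. Of the 43 genes themselves TPX2 lay closest to their common course (0.0546) and PSRC1 farthest (0.506), with NEK2 (0.315), CDCA2 (0.277), MKI67 (0.274) and KIF20B (0.24) next. This likeness is a description over 15 day means and carries no test.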

How the data were processed

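Polyadenylated RNA of 45 samples was sequenced. The submitters' processing notes name bcl2fastq 2.20.0, RSEM and the GRCh38 build; no source used here gives the aligner, the annotation release or the strand setting. The authors deposited 2 tables of 58233 genes, holding RSEM expected counts and TPM (scaled for gene length and library size). Of the expected counts, zeros included, 92.5% were whole, and all were rounded. Symbols came from GENCODE 29 and matched 57895 IDs; IDs without a match held 0.0276% of counts, and no column lacked a sample.

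The quasi-likelihood test of edgeR 4.0.16 (R 4.3.3) was run on the counts of all 45 libraries with day as the factor, after filterByExpr and TMM scaling (factors 0.9247 to 1.061), leaving 30 residual degrees of freedom, and p-values were adjusted by Benjamini-Hochberg over 19436 genes. The median biological coefficient of variation was 8.62%. CPM used TMM-scaled library sizes. Alternatives used DESeq2 1.42.0 or its size factors, limma 3.58.1 on log2 TPM with a pseudocount of 1 or 0.1, no filter, a replicate block, fits of the compared days only, and left-out replicates. The scripts were tested on simulated data.

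Samples were grouped by the day in their labels. The 43 genes and the other lists were chosen with earlier results of these data known, and the markers of labelled cell types were picked after the counts had been seen. The contrast of odd and even late days was chosen because late days alternated in earlier results of these data. Per library values are given for the 2 genes of each role with the highest mean TPM; per comparison the 3 largest and 3 smallest changes and any gene against the majority are named, and at most 3 called genes of each other list. The 10 genes of most similar course and the promoters followed fixed rules of likeness and motif content. The promoter rule chose 8, of which the 6 with the largest fall are printed.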

Additional observations from a re-analysis of the deposited data

How the results depend on the processing

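All 43 genes differed between days under the main analysis, and 1 median changed sign, that of day 10 against day 9 without replicate 3. With limma on TPM (pseudocount 1 or 0.1) the median changes were smaller: 0.36 and 0.36 on day 1 against day 0, -0.27 and -0.27 on day 4 against day 1, -0.36 and -0.37 on day 8 against day 4, and -0.99 and -1.01 on day 15 against day 1. The same 2 fits called 0 genes lower on day 1 against day 0 and 5 higher on day 10 against day 9, and put CDK1 on day 15 against day 8 at 0.0033 and 0.0034; the cause was not tested. Fits of the compared days alone gave 2 genes lower on day 1 against day 0, 4 higher on day 10 against day 9 and 2 lower on odd late days. DESeq2, and its size factors in edgeR, each called 2 lower on day 10 against day 9.

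Leaving out replicates gave 0 to 1 genes higher on day 4 against day 1, 0 to 1 higher on day 15 against day 1, and medians of -1.39 to -1.24 there. For day 10 against day 9 it gave 4 to 11 higher, 0 to 2 lower and medians of -0.0029 to 0.156, and for the odd late days 1 to 27 lower. The main fit called 15.9% of tested genes higher and 13.7% lower on day 10 against day 9. Apart from the version with day 15 counted as odd, the alternative fits are given without the share of all tested genes called. Their counts therefore have no background beside them. Counting day 15 as odd gave 38 lower and 1 higher, with PSRC1 at 0.15 (adjusted p = 0.009, edgeR). Over single genes, 3578 values kept their side of the threshold, 226 lost a call, 85 gained one, 3 turned, and 64 that were called in neither fit changed sign.

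The labels do not say what a shared replicate number marks, and no comparison of 2 days in the report had all 3 same-numbered correlations over 0.1. They were positive but low on day 1 against day 0, day 4 against day 1 and day 8 against day 4 (0.077 to 0.24), where in day 4 against day 1 each library correlated best with its own number, and ran from -0.252 to 0.418 in the other 3. Between neighbouring days 10 to 14 they ran from -0.234 to 0.536, and were over 0.1 in all 3 for day 13 with day 12 alone. With the number as a block, 40 genes were lower on day 4 against day 1 and 42 on day 15 against day 1, in place of 38 and 41; the counts higher and lower in the other comparisons were those given above. Single-library omissions and the longer promoter window were chosen after seeing the data. Depth was not limiting, at 324 counts or more per gene and library.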
